A study of Arabidopsis thaliana with 6 samples.

Results

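The 447 genes described here had transcript levels in the complemented *nerd-1* line (*nerd-1*+T) that lay apart from those in *nerd-1* and in wild type (WT). They were chosen by their measured levels in FPKM (fragments normalized to transcript length and to mapped reads), from 33242 nuclear genes of *A. thaliana*. In 204 genes, called raised, the lower *nerd-1*+T library held at least 5 FPKM and at least 1.5 times the highest of the 4 *nerd-1* and WT libraries. In 243 genes, called lowered, each of these 4 libraries held at least 5 FPKM and at least 1.5 times the higher *nerd-1*+T library. The 3 genotypes were profiled by RNA-seq of polyadenylated RNA from 14-d-old seedlings, with 2 libraries each. *nerd-1*+T was *nerd-1* complemented with a flag-tagged NERD transgene, described in earlier work and represented by 1 line, whose promoter is not given in the sources used here. *nerd-1* was the T-DNA insertion line SALK_093814, and WT was Col-0. *nerd-1*+T and *nerd-1* thus carried the same insertion, and WT carried neither insertion nor transgene. Nothing states that the 2 libraries of a genotype came from separate cultures, so each p-value measures only the spread between these libraries, which may be technical.

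NERD is a plant protein with GW repeats and a PHD finger that acts in RNA silencing and DNA methylation. A complemented line is used to ask which changes of a mutant are reversed by the gene product, and here it also held transcripts at levels that neither *nerd-1* nor WT had. Among the genes that stood out were those of copper supply, in which the copper-responsive microRNAs miR398 and miR408 are known to act on mRNAs of copper proteins, and those of xyloglucan remodelling and expansins, which loosen the growing cell wall.

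The libraries summed to between 847355 and 966119 FPKM over all features. The metallothionein gene *MT1A* took 3.57% and 1.1% of this sum in *nerd-1*+T, against 12.9% and 13.5% in *nerd-1* and 1.59% and 1.71% in WT. The depth behind each value cannot be read from FPKM. An exact 0 can be a failed estimate, since *CAB1*, a light-harvesting gene, was listed at 0 in the second *nerd-1*+T library and in both *nerd-1* libraries. The median SD between replicates was 0.09 log2 units in *nerd-1*+T, 0.04 in *nerd-1* and 0.04 in WT. Of 20249 features tested by limma, 13.2% were higher and 39.8% lower in *nerd-1*+T than in WT at an adjusted p under 0.05, 14% were higher and 24% lower in *nerd-1*+T than in *nerd-1*, and 19.4% were higher and 36.3% lower in *nerd-1* than in WT. These splits moved with scaling. With each library scaled to its median ratio, 4265 features were higher and 3819 lower in *nerd-1*+T than in WT, against 2675 and 8069 as deposited. Between *nerd-1*+T and *nerd-1* the split was 3796 higher and 3543 lower, against 2834 and 4850 as deposited, and with libraries scaled to an equal total it was 5669 higher and 2374 lower. Between *nerd-1* and WT it was 5511 higher and 5123 lower with the median ratio and 2641 higher and 10319 lower with equal totals, against 3924 and 7351 as deposited. As deposited, the median log2 difference over all features was -0.17 between *nerd-1*+T and WT, -0.06 between *nerd-1*+T and *nerd-1* and -0.11 between *nerd-1* and WT, and with equal totals the last was -0.24. Both contrasts with *nerd-1*+T use the same *nerd-1*+T libraries.

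All 447 genes passed the filter of at least 1 FPKM in 2 libraries. Their mean level over the 6 libraries lay between 2.99 and 2395 FPKM in the raised genes, with a median of 26.9, and between 4.34 and 927 FPKM in the lowered genes, with a median of 15.5. The ratio used for the choice had a median of 1.73 in the raised genes and reached 6.56, and 58 genes were at 2 or more. In the lowered genes it had a median of 1.71 and reached 14.4, and 73 genes were at 2 or more. The raised genes together made up 2.99% and 3.35% of the FPKM sum in *nerd-1*+T, against 1.42% and 1.4% in *nerd-1* and 1.09% and 1.07% in WT. The lowered genes made up 0.557% and 0.525% in *nerd-1*+T, against 1.04% and 1.03% in *nerd-1* and 1.32% and 1.31% in WT. Just inside the limit stood the formin gene *AFH1*, at 42.8 and 49.8 FPKM in *nerd-1*+T against 27.6 and 28.5 in *nerd-1* and 25 and 25.1 in WT. Just outside stood the pectin methylesterase gene *PME2*, at 7.16 and 6.54 FPKM in *nerd-1*+T against 4.36 and 3.62 in *nerd-1* and 3.64 and 3.99 in WT. On the lowered side *GPAT6*, a glycerol-3-phosphate acyltransferase gene of cutin synthesis, stood just inside with 3.96 and 4.0 FPKM in *nerd-1*+T against 6.48 and 6.0 in *nerd-1* and 6.82 and 6.85 in WT, and the cytochrome P450 gene *CYP89A2* just outside with 10.2 and 10.6 FPKM in *nerd-1*+T against 15.9 and 15.9 in *nerd-1* and 19.9 and 20.1 in WT. The limit therefore falls among genes of nearly equal ratio. By limma, 204 raised genes were called higher and 241 lowered genes called lower in *nerd-1*+T than in WT, and 204 and 242 against *nerd-1*, which is a consequence of the choice. The same holds where these genes are counted as called in the lists below.

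The choice was repeated on 1 library of each genotype and read in the libraries it had not used. Of 293 genes chosen as raised on the first replicates, 227 (77.5%) met the 1.5-fold condition in the second, beside 2.42% of all genes at that level. Of 406 chosen as lowered, 283 (69.7%) met it, beside 3.69%. In the other direction, 232 of 367 raised genes (63.2%) and 280 of 534 lowered genes (52.4%) chosen on the second replicates met it in the first, beside 2.02% and 2.8%. In the held-out libraries *nerd-1*+T lay beyond both other genotypes on the opposite side in 2 raised and 0 lowered genes when the first replicates were used for the choice, and in 2 raised and 4 lowered genes when the second were. Most of the genes so chosen thus lay on the same side in the held-out libraries, and the rest mostly stayed short of the limit. The shares of all genes include the chosen genes. Since the replicates may be technical, the check describes only how far levels repeated between libraries.

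**Figure D1:**
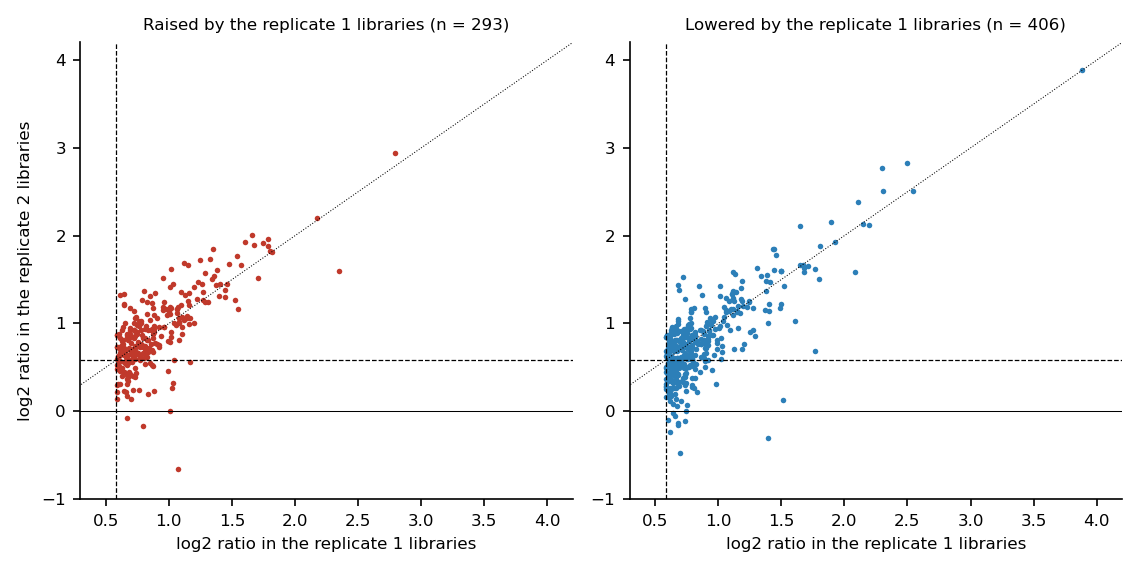
Each point is a gene chosen on the first replicate libraries of *nerd-1*+T, *nerd-1* and WT alone; the x axis gives its log2 ratio there and the y axis the same log2 ratio in the second replicate libraries, for raised (293) and lowered (406) genes. Dashed lines mark 1.5-fold, the dotted line marks equal values, and 6 genes of each kind are not drawn; the medians were 0.80 and 0.83 for the raised genes and 0.75 and 0.74 for the lowered genes.

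The levels of these genes were not equal in *nerd-1* and WT, although the choice set no order between these genotypes. Among the raised genes, *nerd-1* lay above WT without overlap in 155 (76.0%), beside 32.5% of all features, and below WT in 34 (16.7%), beside 53.2%. By limma, 127 raised genes (62.3%) were higher and 11 (5.39%) lower in *nerd-1* than in WT, beside the 19.4% and 36.3% of all features, and their median log2 difference was 0.39. Most raised genes thus stood in the order *nerd-1*+T, *nerd-1*, WT. Among the lowered genes, *nerd-1* lay above WT in 65 (26.7%) and below WT in 149 (61.3%). By limma, 38 (15.6%) were higher and 107 (44.0%) lower in *nerd-1* than in WT, and the median log2 difference was -0.15, near the -0.11 of all features. The lowered share is thus closer to the background than the raised share. With median-ratio scaling 143 raised genes were higher and 7 lower in *nerd-1* than in WT, and with equal totals 109 and 28. For the lowered genes these counts were 56 and 79 with the median ratio and 28 and 143 with equal totals. Over all features they were 5511 higher and 5123 lower of 20230 with the median ratio, and 2641 and 10319 of 20244 with equal totals. The shares of the lowered genes were thus again closer to the background than those of the raised genes. Both scalings multiplied the *nerd-1*+T libraries (by 1.04 to 1.06) more than any other library (at most 1.03). All 204 raised genes were thus bound to meet the rule again. Of the 243 lowered genes, 126 met the rule under both scalings. Of lowered genes in the lists and families below, *STZ*, *BCAT4*, *MYB29*, *BHLH101*, *CCH*, *AKN2*, *SERAT2;2*, *NCED3*, *P5CS1*, *EXPB1* and *AT5G58390* failed it under at least 1 scaling.

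In 34 raised and 65 lowered genes *nerd-1* thus lay on the side of WT away from *nerd-1*+T, as in these examples. Raised *AT5G03120*, which encodes an uncharacterized protein, held 138 and 197 FPKM in *nerd-1*+T, against 39.5 and 43.8 in *nerd-1* and 85.8 and 87.2 in WT, so that *nerd-1* was the lowest genotype. Lowered *AT1G05575*, also uncharacterized, held 7.91 and 7.05 FPKM in *nerd-1*+T, against 33.4 and 37.7 in *nerd-1* and 12.9 and 13.3 in WT, so that *nerd-1* was the highest. Both were singled out after their values were seen. An absolute log2 difference of more than 0.5 between *nerd-1* and WT was found in 86 raised genes with *nerd-1* higher and 5 with *nerd-1* lower, and in 24 and 51 lowered genes. The share of all features beyond this difference was not counted, so these counts cannot be set against a background.

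**Figure D2:**
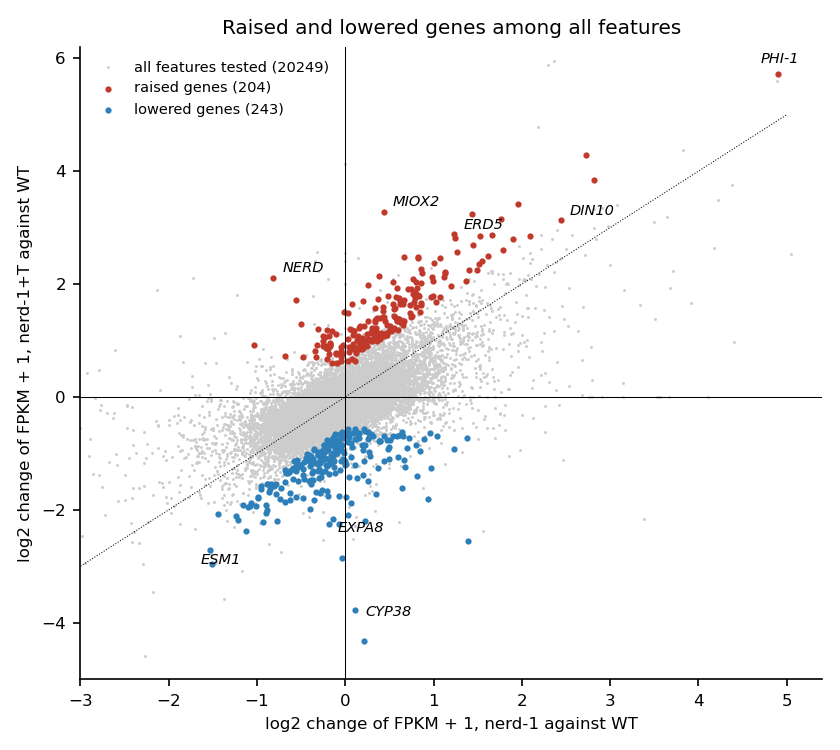
The log2 difference between *nerd-1*+T and WT (y axis) is plotted against that between *nerd-1* and WT (x axis), both on the log2(FPKM + 1) scale, for all 20249 features in grey, the 204 raised genes in red and the 243 lowered genes in blue; 29 features lie outside the axes. Points on the dotted line have equal levels in *nerd-1*+T and *nerd-1*; raised genes lie above it, mostly right of 0, and lowered genes below it on both sides of 0.

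*NERD* itself (AT2G16485) was among the raised genes. It held 63.7 and 63.5 FPKM in *nerd-1*+T, against 7.59 and 7.45 in *nerd-1* and 14.1 and 13.9 in WT. The 3 genotypes did not overlap, and by limma *nerd-1* lay 0.81 ± 0.04 log2 units (SE) below WT, with an adjusted p of 0.00031. The complemented line thus held about 4.5 times the *NERD* level of the highest WT or *nerd-1* library. The gene lies at chr2:7136845-7145424 on the minus strand (TAIR10.1). Of its annotated neighbours, *AT2G16460* held 11.6 and 12.9 FPKM in *nerd-1*+T, against 12.7 and 13.4 in *nerd-1* and 16.7 and 17.2 in WT. *ADC1*, an arginine decarboxylase gene, held 60.4 and 58.3 in *nerd-1*+T, against 83.2 and 82.0 in *nerd-1* and 42.1 and 41.7 in WT. *AT2G16450* and *AT2G16490* were listed at 0 in both *nerd-1*+T libraries and lay at or near 0 in the others. None of the 4 was among the 447 genes. In a seedling library, fewer cells of a type and less RNA per cell cannot be told apart, here and in all results that follow.

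The lowered gene with the highest ratio was *CYP38* (AT3G01480), which encodes a chloroplast cyclophilin of photosystem II assembly. It held 12.6 and 12.3 FPKM in *nerd-1*+T, against 196 and 199 in *nerd-1* and 186 and 181 in WT. Both *nerd-1*+T libraries were thus far below a range that *nerd-1* and WT nearly shared. *CYP38* lies at chr3:188321-190892 on the plus strand (TAIR10.1), and *AT3G01490*, on the other strand, overlaps its 3′ end and held 21.4 and 21.9 FPKM in *nerd-1*+T, against 34.2 and 33.6 in *nerd-1* and 31.5 and 29.9 in WT. Whether the transgene insertion touches this locus was not tested.

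Genes of copper supply were found on both sides. Of 36 copper genes, a list written after the chosen genes had been seen and thus only descriptive, 3 were raised and 7 lowered. Shown first are the mature microRNAs, with the seed (bases 2 to 8) in capitals and the genomic position in TAIR10.1 from RefSeq, because their precursors were lowest in *nerd-1*+T and some mRNAs with a matching site were highest there. miR408-3p lies at chr2:19319933-19319953 and miR398c-3p at chr5:4694778-4694798, both on the plus strand.
miR408-3p: aTGCACTGcctcttccctggc
miR398c-3p: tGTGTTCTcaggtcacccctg
The best-matching sites in 2 of the 3 raised copper mRNAs are given with bases complementary to the microRNA in capitals.
UCC2 site: GCCAGGGtgGAGtCAGTGCtT
CSD1 site: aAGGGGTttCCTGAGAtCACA
The *UCC2* site (chr2:18462149-18462169, minus strand) and the *CSD1* site (chr1:2827177-2827685, plus strand, across an exon junction) each have 4 mismatches and lie outside the coding sequence. Among the longest transcripts of 37885 genes, 9 (0.0238%) had a miR408-3p site of the same or a better score as *UCC2*, and 11 (0.0290%) had a miR398c-3p site of the same or a better score as *CSD1*. For miR398c-3p, the best sites in *CSD2*, *CCS* and *CSD3* scored worse than that in *CSD1*. Sites were scored without gaps, so a site that pairs around a gap scores worse here, and a poor score does not show that a site is absent. Raised *CSD2* had 8 mismatches (score 6.5), and the copper chaperone gene *CCS*, also higher in *nerd-1*+T, had 6 (score 5.5). *CSD3*, a related gene, had 9 (score 7). It held 45.4 and 46.7 FPKM in *nerd-1*+T, against 40.1 and 41.8 in *nerd-1* and 60.5 and 64.1 in WT. Transcripts with a miR408-3p site did not all lie higher in *nerd-1*+T. *ARPN*, a plantacyanin gene, held 4.65 and 4.52 FPKM in *nerd-1*+T, against 1.74 and 2.23 in *nerd-1* and 2.3 and 2.54 in WT, whereas the laccase gene *LAC13*, with the same score as *UCC2*, held 2.42 and 2.97 in *nerd-1*+T, against 2.41 and 2.46 in *nerd-1* and 3.95 and 3.33 in WT. *LAC12*, also with that score, was under 1 FPKM in all libraries, and *AT2G47020*, which is antisense to *MIR408* and so holds a site, was lowered. The score adds 1 for a mismatch and 0.5 for a G to U pair, and a match is a description that does not show cleavage.

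*MIR408* (AT2G47015), the precursor of miR408, held 1.77 and 1.41 FPKM in *nerd-1*+T, against 9.83 and 9.79 in *nerd-1* and 7.6 and 7.34 in WT. *MIR398c*, a precursor of miR398 that did not reach the 5 FPKM of the rule, held 1.13 and 1.29 FPKM in *nerd-1*+T, against 2.99 and 3.37 in *nerd-1* and 4.16 and 4.18 in WT, while *MIR398a*, *MIR398b* and *MIR397a* were listed at 0 in all libraries. *MIR398c* lay -1.23 ± 0.08 log2 units (SE) from WT, with an adjusted p of 0.00037 by limma, and -0.92 ± 0.08 from *nerd-1*, with an adjusted p of 0.0020. *MIR857*, another copper-responsive precursor, was low, at 0.154 and 0.154 FPKM in *nerd-1*+T, against 0.899 and 1.29 in *nerd-1* and 3.92 and 2.67 in WT. All 3 precursors were thus lowest in both *nerd-1*+T libraries. *CSD2*, which encodes the chloroplast copper/zinc superoxide dismutase, held 57.6 and 66.1 FPKM in *nerd-1*+T, against 11.3 and 12.4 in *nerd-1* and 18.1 and 17.9 in WT. *CSD1*, its cytosolic counterpart, held 67.2 and 50.1 FPKM in *nerd-1*+T, against 23.0 and 22.3 in *nerd-1* and 13.1 and 12.6 in WT. *UCC2*, a uclacyanin (blue copper protein) gene, held 60.3 and 51.9 FPKM in *nerd-1*+T, against 27.3 and 24.5 in *nerd-1* and 20.5 and 22.6 in WT. All 3 were highest in *nerd-1*+T without overlap, whereas the order of *nerd-1* and WT differed, with *nerd-1* below WT for *CSD2* and above it for *CSD1*. *CCS*, the copper chaperone gene for superoxide dismutase, was not among the 447 genes at 27.8 and 31.7 FPKM in *nerd-1*+T, against 15 and 14.9 in *nerd-1* and 18.0 and 18.8 in WT. In overlapping genes the level is uncertain, since the use of strand in the authors' estimates is not given in the sources used here. *MIR408* lies within *AT2G47020* on the opposite strand, and that gene, also lowered, held 6.58 and 8.08 FPKM in *nerd-1*+T, against 12.6 and 12.3 in *nerd-1* and 12.2 and 12.4 in WT.

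The lowered copper genes also comprised genes of uptake and transport. The copper transporter gene *COPT2* held 14.2 and 19.6 FPKM in *nerd-1*+T, against 62.1 and 58.8 in *nerd-1* and 60.4 and 59.4 in WT. *FRO4*, a ferric and cupric reductase gene, held 6.52 and 6.82 FPKM in *nerd-1*+T, against 22.2 and 20.9 in *nerd-1* and 24.3 and 25.3 in WT, and its neighbour *FRO5* held 0.132 and 0.208 in *nerd-1*+T, against 3.64 and 3.70 in *nerd-1* and 3.52 and 3.57 in WT, below the level the rule asks for. *AT1G71200*, a bHLH transcription factor gene, held 3.04 and 2.48 FPKM in *nerd-1*+T, against 16.5 and 14.1 in *nerd-1* and 15 and 14.9 in WT. For *COPT2* and *AT1G71200*, *nerd-1* and WT were within 0.03 log2 units of each other and overlapped, and only *nerd-1*+T stood apart. *YSL2*, a metal-nicotianamine transporter gene, held 14.6 and 13.0 FPKM in *nerd-1*+T, against 42.6 and 43.9 in *nerd-1* and 37.0 and 38.0 in WT. The metal transporter gene *ZIP2* held 20.3 and 20.0 FPKM in *nerd-1*+T, against 38.5 and 37.1 in *nerd-1* and 35.8 and 36.4 in WT. The copper chaperone gene *CCH* held 427 and 353 FPKM in *nerd-1*+T, against 880 and 884 in *nerd-1* and 678 and 665 in WT. *SPL7*, which encodes the transcription factor of the copper response, held 12 and 11.2 FPKM in *nerd-1*+T, against 15.7 and 15.2 in *nerd-1* and 15.8 and 16.1 in WT, a smaller difference than the rule asks for. The iron superoxide dismutase gene *FSD1* held 685 and 612 FPKM in *nerd-1*+T, against 934 and 956 in *nerd-1* and 954 and 969 in WT.

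**Figure D3:**
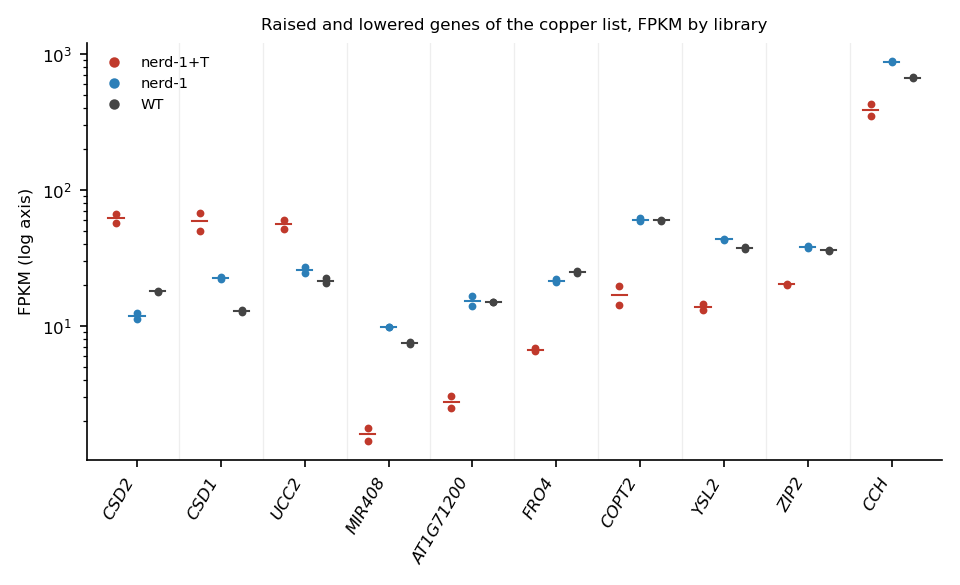
FPKM on a log axis of 10 copper genes in each library of *nerd-1*+T, *nerd-1* and WT, with bars at the means of 2 libraries. *CSD2*, *CSD1* and *UCC2* are highest in *nerd-1*+T, and *MIR408*, *AT1G71200*, *FRO4*, *COPT2*, *YSL2*, *ZIP2* and *CCH* are lowest there.

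SPL7 is known to bind the core GTAC, so stretches upstream of lowered copper genes are shown with GTAC in capitals, from RefSeq on TAIR10.1. The first is the gap between *AT2G47010* and *AT2G47020* upstream of *MIR408* (chr2:19319398-19319684, plus strand). The others are the 250 bases before the start of *YSL2* (chr5:8323645-8323894, plus strand) and *ZIP2* (chr5:23992909-23993158, minus strand).
MIR408 upstream: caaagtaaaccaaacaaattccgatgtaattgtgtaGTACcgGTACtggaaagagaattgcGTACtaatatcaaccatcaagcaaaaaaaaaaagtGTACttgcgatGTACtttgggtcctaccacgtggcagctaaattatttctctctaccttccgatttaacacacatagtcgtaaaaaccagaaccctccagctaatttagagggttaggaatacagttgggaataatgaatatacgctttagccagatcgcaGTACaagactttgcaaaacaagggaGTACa
YSL2: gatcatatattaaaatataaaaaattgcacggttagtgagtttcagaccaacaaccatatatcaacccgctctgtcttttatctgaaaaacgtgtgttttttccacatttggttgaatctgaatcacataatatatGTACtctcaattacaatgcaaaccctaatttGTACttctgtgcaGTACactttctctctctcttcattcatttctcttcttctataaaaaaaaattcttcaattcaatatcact
ZIP2: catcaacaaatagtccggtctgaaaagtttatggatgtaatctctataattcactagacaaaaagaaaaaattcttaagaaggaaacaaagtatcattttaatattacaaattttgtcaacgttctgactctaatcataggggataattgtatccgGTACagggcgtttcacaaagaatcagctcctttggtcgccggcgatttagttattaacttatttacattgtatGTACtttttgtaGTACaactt
The *MIR408* stretch holds 7 copies of GTAC, and those of *YSL2* and *ZIP2* 3 each. Of all 32780 genes, 34.8% had GTAC in the 250 bases before the start and 1.51% had 3 or more copies. Of the 7 lowered copper genes 4 had it, and *AT1G71200*, *COPT2* and *FRO4* did not. Over all lowered genes 103 of 240 (42.9%) and over all raised genes 67 of 204 (32.8%) had GTAC, beside 34.5% of genes with a mean of at least 5 FPKM. This motif was chosen after the genes had been seen.

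Cell wall genes showed a split by family. Of 31 xyloglucan endotransglucosylase/hydrolase (XTH) genes, whose enzymes cut and rejoin xyloglucan, 20 had a mean of at least 5 FPKM. Of the 31 genes 7 were raised and 1 was lowered, and the lowered gene met the rule under both scalings. Of 22 expansin A genes 10 had such a mean, none was raised and 5 were lowered. Of 5 expansin B genes 1 had such a mean and 2 were lowered. Of 4 expansin-like genes 2 were raised. *XTH24* held 554 and 490 FPKM in *nerd-1*+T, against 192 and 203 in *nerd-1* and 92.2 and 94.8 in WT. *XTH16* held 221 and 255 FPKM in *nerd-1*+T, against 65.8 and 67.7 in *nerd-1* and 42.3 and 40.9 in WT. *XTH15* held 57.1 and 53.0 FPKM in *nerd-1*+T, against 16.2 and 15.1 in *nerd-1* and 11.1 and 12.4 in WT. In each of these 3 genes the genotypes did not overlap and *nerd-1* stood between *nerd-1*+T and WT. *XTH4*, with the highest level of the family, held 1030 and 1221 FPKM in *nerd-1*+T, against 572 and 593 in *nerd-1* and 530 and 525 in WT. *XTR6* held 29.5 and 28.5 FPKM in *nerd-1*+T, against 11.9 and 12 in *nerd-1* and 3.27 and 2.91 in WT, and *XTH25* and *XTH33* were ordered in the same way at lower levels. *EXLA1*, an expansin-like gene, held 267 and 311 FPKM in *nerd-1*+T, against 96.2 and 97.4 in *nerd-1* and 12.7 and 15 in WT. The step from WT to *nerd-1* was thus larger in *EXLA1* and *XTR6* than in *XTH4*.

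On the lowered side, *EXPA8* held 13.7 and 13.9 FPKM in *nerd-1*+T, against 60.8 and 60.8 in *nerd-1* and 69.7 and 68.6 in WT. *EXPA1* held 40.6 and 42.2 FPKM in *nerd-1*+T, against 93.3 and 96.6 in *nerd-1* and 152 and 154 in WT. *EXP3* held 11.6 and 10.5 FPKM in *nerd-1*+T, against 30.1 and 29.5 in *nerd-1* and 37.6 and 38.0 in WT. All 3 were lowest in *nerd-1*+T with *nerd-1* between it and WT, and *nerd-1* was near WT for *EXPA8* and midway for *EXPA1*. *XTH31*, the single lowered XTH gene, held 8.67 and 8.28 FPKM in *nerd-1*+T, against 15.2 and 14.9 in *nerd-1* and 27.0 and 26.5 in WT. In a list of 15 expansin and XTH genes, 6 were higher and 9 lower in *nerd-1*+T than in WT, 6 and 9 against *nerd-1*, and 7 higher and 5 lower in *nerd-1* than in WT, with list medians of -0.55, -0.59 and 0.14 log2 units. Over all features these shares were 13.2% and 39.8%, 14% and 24%, and 19.4% and 36.3%. All 15 were thus called in both contrasts with *nerd-1*+T, and the 9 lower genes comprised all 8 expansin A genes of the list, whether among the 447 or not, and *XTH31*. The list held 4 raised and 5 lowered genes, whose calls in these contrasts follow from the choice.

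**Figure D4:**
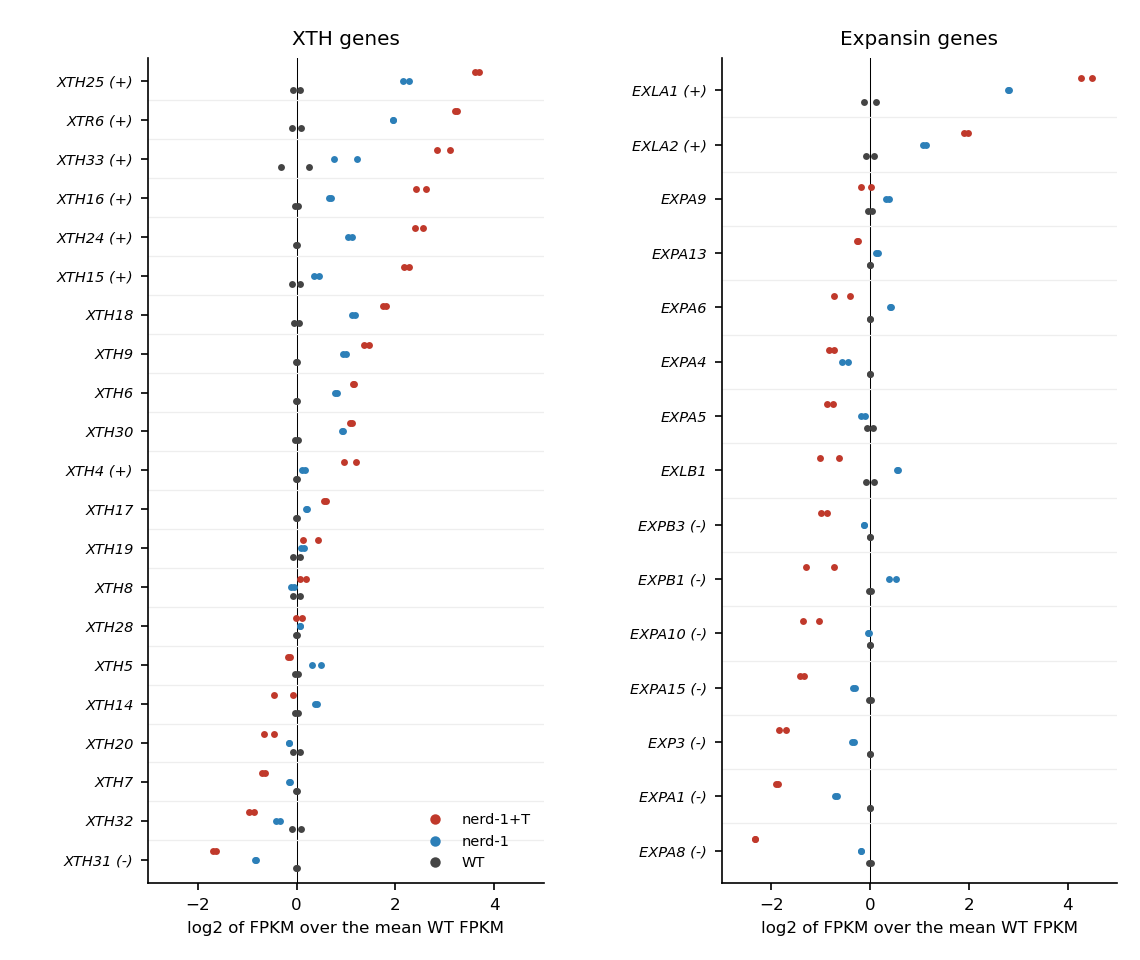
Log2 of FPKM over the WT mean for XTH and expansin genes with a mean of at least 5 FPKM or among the 447. Each library of *nerd-1*+T, *nerd-1* and WT has a point, (+) marks raised and (-) lowered genes. In *nerd-1*+T the raised XTH and expansin-like genes stand above 0, and *XTH31* and the lowered expansin A and B genes below 0. Some unmarked genes, such as *XTH7*, *XTH32* and *EXLB1*, also stand below 0 there.

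Other wall genes, singled out after their values were seen, lay on both sides. *THE1*, a receptor kinase gene of cell elongation, held 231 and 241 FPKM in *nerd-1*+T, against 125 and 126 in *nerd-1* and 32.5 and 33.4 in WT. Of 18 fasciclin-like arabinogalactan genes 12 had a mean of at least 5 FPKM and 3 were raised. The highest raised one, *FLA9*, held 551 and 685 FPKM in *nerd-1*+T, against 257 and 267 in *nerd-1* and 146 and 154 in WT. Among 109 pectate lyase and pectin lyase-like genes 29 had such a mean, 1 was raised and 5 were lowered. Lowered *AT1G60590* held 3.55 and 3.84 FPKM in *nerd-1*+T, against 11.6 and 12.1 in *nerd-1* and 36.0 and 35.3 in WT. *nerd-1* thus stood between the other genotypes in all 3 examples.

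The raised gene with the highest ratio was *MIOX2* (AT2G19800), a myo-inositol oxygenase gene, which opens the route from inositol to cell wall sugars. It held 344 and 403 FPKM in *nerd-1*+T, against 49.6 and 52.4 in *nerd-1* and 38.5 and 36.3 in WT. *nerd-1* lay 0.44 ± 0.09 log2 units (SE) above WT, with an adjusted p of 0.010 by limma, and *nerd-1*+T lay far above both. Its paralog *MIOX1* held 23.0 and 23.3 FPKM in *nerd-1*+T, against 8.15 and 8.24 in *nerd-1* and 9.53 and 9.68 in WT, so that *nerd-1* was here the lowest. *THA1*, a threonine aldolase gene, held 14.8 and 16.9 FPKM in *nerd-1*+T, against 4.29 and 4.33 in *nerd-1* and 1.98 and 2.04 in WT. *ERD5*, which encodes proline dehydrogenase, the first enzyme of proline breakdown, held 460 and 529 FPKM in *nerd-1*+T, against 158 and 156 in *nerd-1* and 63.6 and 68.7 in WT. *P5CS1*, a gene of proline synthesis, was lowered, with 41.6 and 39.9 FPKM in *nerd-1*+T, against 65.4 and 65.1 in *nerd-1* and 107 and 102 in WT. It failed the rule under both scalings, and *P5CS2*, the other gene of this step, held 87.7 and 81.8 FPKM in *nerd-1*+T, against 80.3 and 78.8 in *nerd-1* and 78.3 and 78.4 in WT. *ERD5* was thus highest and *P5CS1* lowest in *nerd-1*+T, and *P5CS2* was nearly level across the genotypes. *BCAT-2*, of branched-chain amino acid breakdown, held 21.1 and 22.6 FPKM in *nerd-1*+T, against 10.9 and 11.6 in *nerd-1* and 5.74 and 6.59 in WT. *GDH2*, a glutamate dehydrogenase gene, held 306 and 286 FPKM in *nerd-1*+T, against 171 and 174 in *nerd-1* and 115 and 111 in WT.

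For some of these genes the larger step lay between *nerd-1* and WT. *PHI-1*, an EXORDIUM-like gene, held 177 and 168 FPKM in *nerd-1*+T, against 99.5 and 95.3 in *nerd-1* and 2.11 and 2.49 in WT, and *nerd-1* lay 4.90 ± 0.07 log2 units (SE) above WT. *DIN10*, a raffinose synthase family gene induced in darkness, held 761 and 686 FPKM in *nerd-1*+T, against 446 and 454 in *nerd-1* and 81.1 and 82.6 in WT. *SIP2*, of the same family, held 276 and 257 FPKM in *nerd-1*+T, against 147 and 151 in *nerd-1* and 50.5 and 52.5 in WT. For these 3 genes the label of a change seen in the complemented line alone does not hold, since *nerd-1* already lay far above WT. In a list of 6 genes of darkness and sugar starvation, all 6 were higher in *nerd-1*+T than in WT, 4 were higher and 1 lower than in *nerd-1*, and 6 were higher in *nerd-1* than in WT, with list medians of 1.70, 0.62 and 0.85 log2 units beside the -0.17, -0.06 and -0.11 of all features. Of 17 genes of amino acid and carbon use, a list written after the chosen genes had been seen, 8 were raised and 1 was lowered.

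Of 23 early stress transcription factor genes, which respond rapidly to wounding, touch or pathogens, 1 was raised and 7 were lowered. *ERF5*, an ethylene response factor gene, held 6.75 and 7.69 FPKM in *nerd-1*+T, against 30.9 and 33.4 in *nerd-1* and 34.4 and 36.8 in WT. *ZAT6*, a zinc finger factor gene, held 6.97 and 6.50 FPKM in *nerd-1*+T, against 33.5 and 36.1 in *nerd-1* and 19.0 and 19.8 in WT. The ERF gene *AT5G51190* held 22.0 and 29.7 FPKM in *nerd-1*+T, against 123 and 129 in *nerd-1* and 76.6 and 84.1 in WT. Apart from *ERF5*, the lowered factor genes were highest in *nerd-1*, *CZF1*, *WRKY53* and *WRKY40* among them. *STZ*, another zinc finger factor gene, held 33.7 and 30.5 FPKM in *nerd-1*+T, against 107 and 112 in *nerd-1* and 51.5 and 53.2 in WT. *WRKY18* was the exception, with 74.0 and 97.3 FPKM in *nerd-1*+T, against 23.4 and 24.2 in *nerd-1* and 8.43 and 7.85 in WT. It stood highest in *nerd-1*+T without overlap, and *WRKY40*, its close relative, lowest at 16.6 and 15.9 FPKM, against 53.3 and 52.5 in *nerd-1* and 30.6 and 29.4 in WT.

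The calls of the 1 raised and 7 lowered factor genes in the contrasts with *nerd-1*+T follow from the choice. Over the whole list, 22 genes were tested. Of these, 4 were higher and 14 lower in *nerd-1*+T than in WT, 1 was higher and 19 lower than in *nerd-1*, and 19 were higher in *nerd-1* than in WT, with list medians of -0.49, -1.25 and 0.85 log2 units. Beside the 19.4% and 36.3% of all features, most of the list was thus higher in *nerd-1* than in WT. In the contrasts with *nerd-1*+T the shares of all features were 13.2% and 39.8%, and 14% and 24%. There the list counts include the chosen genes, so no result is drawn from setting them beside these shares. With median-ratio scaling the split between *nerd-1*+T and WT was 6 higher and 10 lower. *ACS6*, an ethylene synthesis gene, was ordered like *ZAT6*, with 9.20 and 9.07 FPKM in *nerd-1*+T, against 66.8 and 67.6 in *nerd-1* and 34.9 and 34.6 in WT. *ORA47*, an AP2/ERF factor gene of the jasmonate response, held 2.97 and 2.05 FPKM in *nerd-1*+T, against 15.4 and 14.0 in *nerd-1* and 14.6 and 16.5 in WT, and its *nerd-1* and WT libraries overlapped.

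**Figure D5:**
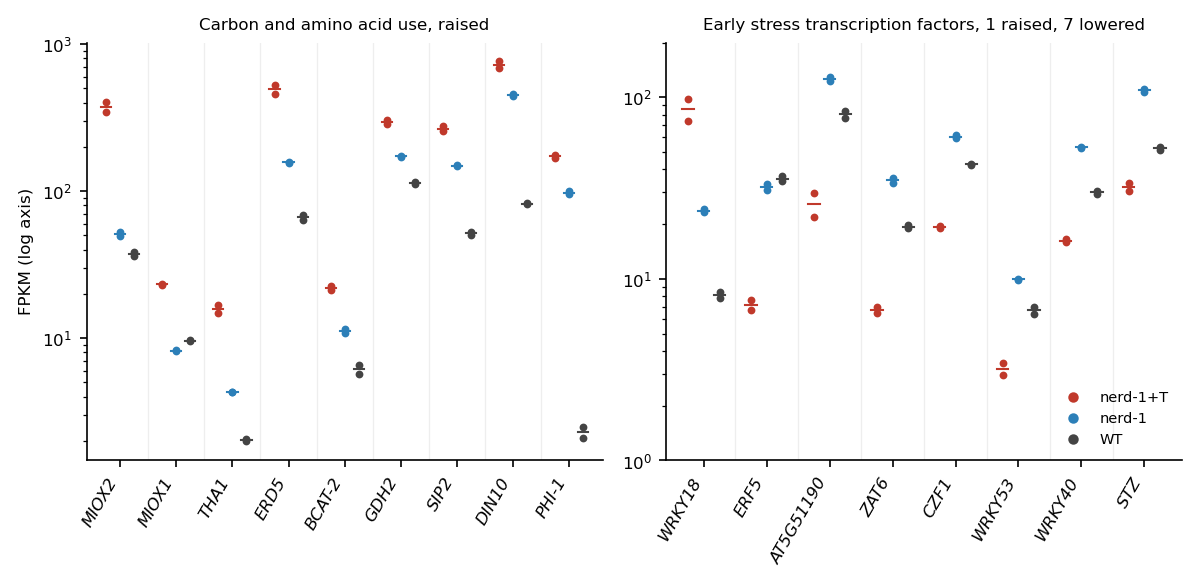
FPKM on a log axis in each library of *nerd-1*+T, *nerd-1* and WT, with bars at the means of 2 libraries, for raised genes of carbon and amino acid use (left) and for 8 early stress transcription factor genes (right). On the left *nerd-1*+T is highest throughout; on the right it is highest for *WRKY18* and lowest for the other 7 genes, of which all but *ERF5* are highest in *nerd-1*.

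The phosphate and iron genes among the 447 were all lowered. Of 11 phosphate starvation genes 4 were lowered. *PAP17*, a purple acid phosphatase gene, held 3.75 and 3.86 FPKM in *nerd-1*+T, against 12 and 11.9 in *nerd-1* and 21.5 and 20.7 in WT. *SPX1*, a phosphate-sensing gene, held 14.5 and 12.7 FPKM in *nerd-1*+T, against 30.8 and 30.5 in *nerd-1* and 57.9 and 57.1 in WT. *SRG3*, a glycerophosphodiester phosphodiesterase gene, held 8.52 and 7.37 FPKM in *nerd-1*+T, against 24.6 and 26.5 in *nerd-1* and 24.0 and 22.3 in WT. *nerd-1* stood between in *PAP17* and *SPX1* and beside WT in *SRG3*, and the fourth gene, the transporter *PHT1;4*, was placed like *SRG3*. Of 10 phosphate genes tested, 1 was higher and 7 lower in *nerd-1*+T than in WT, and 2 were higher and 5 lower than in *nerd-1*, beside 13.2% and 39.8%, and 14% and 24%, of all features. Of 16 iron genes 2 were lowered, the bHLH factor gene *BHLH101* and *AT1G47395*. *BHLH101* held 2.82 and 3.05 FPKM in *nerd-1*+T, against 11.1 and 11.2 in *nerd-1* and 5.36 and 5.80 in WT, and the iron uptake gene *IRT1*, not among the 447 genes, held 17.37 and 14.4 FPKM in *nerd-1*+T, against 14.9 and 15.4 in *nerd-1* and 7.24 and 8.18 in WT. Of 15 iron genes tested, 3 were higher and 9 lower in *nerd-1*+T than in WT, beside the 13.2% and 39.8% of all features.

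Sulphur metabolism was likewise represented among the lowered genes only. *APR1*, which encodes adenosine phosphosulphate reductase of sulphate assimilation, held 24.4 and 22.3 FPKM in *nerd-1*+T, against 55.4 and 55.0 in *nerd-1* and 55.4 and 54.1 in WT. *LSU2*, a gene of the sulphur deficiency response, held 7.01 and 7.93 FPKM in *nerd-1*+T, against 19.7 and 17.9 in *nerd-1* and 28.6 and 27.5 in WT. *nerd-1* was level with WT for *APR1* and below it for *LSU2*, and 4 of 17 sulphate assimilation genes, a list written after the chosen genes had been seen, were lowered. Of 22 genes of glucosinolates, the sulphur-rich defence compounds of the Brassicaceae, 4 were lowered, the factor gene *MYB29*, *BCAT4*, *BAT5* and *FMO GS-OX1*. *MYB29* held 6.58 and 9.05 FPKM in *nerd-1*+T, against 15 and 14.8 in *nerd-1* and 36.5 and 36.7 in WT. All 22 were tested, and 2 were higher and 20 lower in *nerd-1*+T than in WT, 1 and 13 against *nerd-1*, and 2 and 19 in *nerd-1* against WT, with list medians of -1.13, -0.35 and -0.79 log2 units. The lower shares over all features in these contrasts were 39.8%, 24% and 36.3%. The larger part of the difference from WT was thus present in *nerd-1*. *ESM1*, a lipase-like gene that affects glucosinolate breakdown, held 84.1 and 84.1 FPKM in *nerd-1*+T, against 188 and 193 in *nerd-1* and 554 and 556 in WT, in the same order.

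Abscisic acid genes lay on both sides, in a list of 25 written after the chosen genes had been seen. The receptor gene *PYL4* held 145 and 206 FPKM in *nerd-1*+T, against 82.8 and 79.6 in *nerd-1* and 53.3 and 52.1 in WT. *PYL6*, another receptor gene, held 9.54 and 11.5 FPKM in *nerd-1*+T, against 3.74 and 3.17 in *nerd-1* and 2.13 and 2.80 in WT. *NCED3*, a gene of abscisic acid synthesis, held 2.0 and 1.94 FPKM in *nerd-1*+T, against 5.21 and 5.85 in *nerd-1* and 5.37 and 5.70 in WT. The 2 receptor genes were thus highest in *nerd-1*+T, whereas *NCED3* and *NCED4*, and *ABI1*, a phosphatase gene that restrains the response, were lowest there. Other lowered genes from the lists were *COR15B*, a cold-regulated gene, at 46.5 and 50.2 FPKM in *nerd-1*+T, against 93.6 and 97.1 in *nerd-1* and 230 and 217 in WT, and *TT5*, the chalcone isomerase gene, at 4.66 and 4.66 FPKM in *nerd-1*+T, against 9.41 and 9.15 in *nerd-1* and 11.2 and 11.4 in WT. Both were lowest in *nerd-1*+T with *nerd-1* between. *FLC*, the MADS-box repressor of flowering, singled out after its values were seen, held 6.68 and 6.86 FPKM in *nerd-1*+T, against 19.9 and 20.5 in *nerd-1* and 11.8 and 11.9 in WT, so that *nerd-1* was highest.

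Another microRNA precursor, *MIR167d* (AT1G31173), was raised, at 8.92 and 9.39 FPKM in *nerd-1*+T, against 3.0 and 3.09 in *nerd-1* and 3.66 and 3.96 in WT. Its mature sequence is shown, seed in capitals, because miR167 is known to act on *ARF6* and *ARF8*, auxin response factor genes, and it lies at chr1:11137556-11137577 on the plus strand (TAIR10.1, RefSeq).
miR167d: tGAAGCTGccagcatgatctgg
*ARF6* held 22.9 and 23.8 FPKM in *nerd-1*+T, against 21.4 and 20.7 in *nerd-1* and 25.5 and 26.0 in WT, and *ARF8* held 13.3 and 15.2 in *nerd-1*+T, against 18.3 and 17.1 in *nerd-1* and 23.9 and 23.4 in WT. *ARF6* therefore differed little among the genotypes, and *ARF8* was lowest in *nerd-1*+T. The microRNAs themselves were not measured in polyadenylated RNA, and the 3 seeds printed differ.

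The raised genes with the highest levels were *AT5G54940*, of the SUI1 translation initiation factor family, and *AT2G15960*, annotated as stress-induced. *AT5G54940* held 3302 and 4434 FPKM in *nerd-1*+T, against 1859 and 1872 in *nerd-1* and 1461 and 1440 in WT. Its 2 *nerd-1*+T libraries differed more than those of *nerd-1* or WT, which was general, since the median SD between replicates of the raised genes was 0.10 log2 units in *nerd-1*+T, 0.03 in *nerd-1* and 0.04 in WT. *PCAP1*, which encodes a cation-binding protein of the plasma membrane, held 814.4 and 886 FPKM in *nerd-1*+T, against 483 and 469 in *nerd-1* and 498 and 493 in WT. The lowered genes with the highest levels were *AT1G13930*, of the salt response, *CCH* and *ESM1*, followed by the gibberellin-regulated gene *GASA4* and the phosphoenolpyruvate carboxylase gene *PPC2*. *GASA4* held 177 and 142 FPKM in *nerd-1*+T, against 306 and 320 in *nerd-1* and 319 and 312 in WT, and *nerd-1* and WT overlapped. In 3 lowered genes, *AT4G36791*, *RTFL14* and *AT2G11891*, the second *nerd-1*+T library was listed at 0. No fold was taken for these.

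Some of the genes were neighbours. In the TAIR10.1 annotation, which holds 204 raised and 240 lowered genes, 5 pairs of adjacent raised genes and 8 pairs of adjacent lowered genes were found, and no raised gene lay beside a lowered gene. Such pairs were not counted in other sets of genes. On chromosome 1, *AT1G72910* and *AT1G72920*, both with a TIR domain, lie side by side. *AT1G72920* held 2.93 and 3.15 FPKM in *nerd-1*+T, against 19.5 and 21.7 in *nerd-1* and 17.1 and 17.9 in WT. *AT1G72910* held 7.75 and 6.29 FPKM in *nerd-1*+T, against 29.6 and 29.8 in *nerd-1* and 28.8 and 28.1 in WT. These 2 were the lowered members among 129 TIR domain genes, of which 52 had a mean of at least 5 FPKM. Another 5 were raised, such as *AT1G63860* at 19.8 and 21.0 FPKM in *nerd-1*+T, against 10.4 and 10.8 in *nerd-1* and 2.67 and 2.94 in WT. The ankyrin repeat genes *AT5G54710* and *AT5G54720* form a raised pair. *AT5G54710* held 65.0 and 75.9 FPKM in *nerd-1*+T, against 25 and 24.8 in *nerd-1* and 5.85 and 5.45 in WT, and *AT5G54720* held 64.9 and 94.5 in *nerd-1*+T, against 29.2 and 29.9 in *nerd-1* and 8.37 and 7.58 in WT. Paralogs of this kind can share reads, so their separate levels are uncertain.

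Further adjacent lowered genes were *SQP1* with *AT5G24155*, both of the FAD/NAD(P)-binding oxidoreductase family, and *AT4G30650* with *AT4G30660*, both of the low temperature and salt responsive family. Other lowered pairs were *PPC2* with *LSH10*, *AT4G24780* with *AT4G24790*, and *AT2G47020* with *AT2G47010* and with *MIR408*. *AT4G30650* held 63.4 and 54.1 FPKM in *nerd-1*+T, against 101 and 106 in *nerd-1* and 218 and 219 in WT. *nerd-1* thus stood between *nerd-1*+T and WT and far below WT. The further raised pairs were *KCS1*, of wax synthesis, with *AT1G01130*, *AT1G19530* with *AT1G19540*, and *AT5G01732* with *SCAR4*, which it overlaps on the opposite strand, and with *AT5G01740*. *AT5G01740* held 54.9 and 49.4 FPKM in *nerd-1*+T, against 18.5 and 15.5 in *nerd-1* and 7.06 and 6.14 in WT. Another annotated gene overlapped 42 of the 204 raised and 48 of the 240 lowered genes, whose levels are uncertain for the same reason as that of *MIR408*.

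Features the choice had not used were described for both groups. Chromosome 1 held 63 of the 204 raised genes (30.9%) and 51 of the 243 lowered genes (21.0%), beside 26.0% of the 14876 genes with a mean of at least 5 FPKM. The median coding length was 1179 bp in the raised and 996 bp in the lowered genes, beside 1137 bp. Motifs were searched in the 250 bases before each start on both strands, without masking overlaps between motifs. CGCGTT, the rapid stress response element bound by CAMTA factors, was found in 16 of 204 raised genes (7.84%) and 5 of 240 lowered genes (2.08%), beside 2.66% of 14838 genes at this level. None of the 7 lowered early stress factor genes had it. GGCCCA, the site II element common in genes of ribosomes and growth, was found in 4.90% of raised and 7.5% of lowered genes, beside 17.8%. The G-box CACGTG was found in 6.37% and 8.75% beside 7.43%, and the W-box TTGACC in 12.7% and 12.5% beside 11.9%. CGCGTT was thus more common in the raised genes and GGCCCA less common in both groups than in genes at this level, without a test.

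None of the 447 genes was in the lists of touch, jasmonate, salicylic acid, circadian clock, heat shock, auxin, nitrate, light harvesting, RNA silencing, or m6A and termination genes, and none was a marker of root, leaf mesophyll, guard cell, flower or seed. The 5 leaf mesophyll markers, which define green tissue, summed to 30075 and 16718 FPKM in *nerd-1*+T, against 19272 and 20094 in *nerd-1* and 26137 and 26829 in WT. These markers include *CAB1*, whose listed level may be a failed estimate in the second *nerd-1*+T library and both *nerd-1* libraries, as given above. The sums are lowest in the same libraries and thus cannot be read as a difference in green tissue. The 6 flower markers summed to 3.49 and 3.56 FPKM in *nerd-1*+T, against 3.01 and 3.25 in *nerd-1* and 3.42 and 2.6 in WT, and the 2 seed markers were under 1 FPKM in all libraries. The summed level of the 13 root markers was 96.5 and 84.3 FPKM in *nerd-1*+T, against 100 and 92.1 in *nerd-1* and 99.2 and 99.4 in WT, and that of the 3 guard cell markers was 43.6 and 62.7 FPKM in *nerd-1*+T, against 53.2 and 50.8 in *nerd-1* and 75.3 and 79.9 in WT. Of 11 root markers tested, 4 were lower in *nerd-1*+T than in WT, beside 39.8% of all features. The part of such shifts in the results above was not tested.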

How the data were processed

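RNA-seq was carried out on 14-d-old seedlings of *nerd-1*+T, *nerd-1* and WT, with 2 libraries of each. Single-end reads of stranded libraries from polyadenylated RNA were mapped by the authors (Bowtie 2 v2.3.4, TopHat2 v2.0.7, genome TAIR10), and FPKM, which relate reads to transcript length and mapped reads, were estimated per library (Cufflinks v2.2.1) and deposited. FPKM holds no counts, so that the depth behind each value and its counting error cannot be read from the files and a gene at low level is less reliable than these values show. Exact zeros were kept as listed.

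From these values, 64621 features were read. The 20249 features that reached 1 FPKM in 2 or more of the 6 libraries were tested on log2(FPKM + 1), a scale that understates changes of low genes, with limma v3.58.1 in R v4.3.3. One linear model covered the 3 genotypes, with an intensity trend and Benjamini-Hochberg adjustment over all features at a threshold of 0.05. Log2 differences are on this scale with their SE. No permutation test is given, since with 2 libraries on each side the smallest two-sided exact p would be 0.333. On simulated data, with 200 of 20249 features changed between *nerd-1*+T and WT, 95% were recovered at a log2 difference of 0.6 and 100% at 1.5, with 3.94% false calls. The simulated libraries had no overall shift and far fewer changed features than were called here. The simulation thus does not measure errors that come from scaling. Other steps used Python v3.11.15, numpy v2.4.6, pandas v2.3.3 and matplotlib v3.10.9.

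The genes and the pathway lists were chosen with earlier results of these data known, and 4 lists and the motif GTAC were added after the chosen genes had been seen. Named genes were *NERD* and its 2 neighbours on each side and, in each group, the 10 with the highest ratio, the 5 with the highest mean, the 2 on each side of the limit, list members and neighbours of one another. Others are named as singled out after their values were seen, and those of the added lists with them. Sequences, positions and gene products came from RefSeq (TAIR10.1). MicroRNA sites were scored without gaps, 1 for a mismatch and 0.5 for a G to U pair, and the best was taken. Alternatives were another pseudocount, low-level filter, ratio, minimum level, scaling and set of libraries. The deposited per-library values were used alone, and no column of the authors' own comparisons was used. One pair of adjacent genes is not reported here.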

Additional observations from a re-analysis of the deposited data

How the results depend on the processing

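The number of chosen genes depended on the rule. With a ratio of 2 in place of 1.5 there were 58 raised and 73 lowered genes. With a minimum of 1 FPKM there were 258 raised and 390 lowered genes. With libraries scaled to equal totals there were 320 raised and 154 lowered genes, and with median-ratio scaling 289 and 157. Of the 243 lowered genes 126 were kept under both scalings. All 204 raised genes had to be kept, since both scalings multiplied *nerd-1*+T the most. Leaving out 1 library at a time gave 210 to 329 raised and 259 to 428 lowered genes, which is by construction more, since fewer libraries had to meet the rule. The highest raised count came without *nerd-1*+T replicate 1.

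Calls over all features between *nerd-1*+T and WT numbered 10744, and 5859 to 12676 with 1 library left out. Between *nerd-1*+T and *nerd-1* they numbered 7684, and 4956 when only these genotypes were fitted and 1774 to 11262 with 1 library left out. Between *nerd-1* and WT they numbered 11275, and 5885 to 13629 with 1 library left out. A replicate block gave 10187, 6763 and 10713 calls in these contrasts and called 135 raised and 140 lowered genes between *nerd-1* and WT, against 138 and 145 without it. Libraries of the same number did not deviate together (correlations 0.05, 0.09 and -0.001), so they share only a number, and the block moved no count by over 1.5 times. The cause of the other changes was not tested. The split of calls between *nerd-1*+T and *nerd-1* turned over with libraries scaled to equal totals, to 5669 higher and 2374 lower, against 2834 and 4850 as deposited. Of 129 named genes, 0 were reversed in direction against WT under the alternatives run. Most of them were chosen by this difference, so that a reversal was hardly possible. With median-ratio scaling, the log2 difference of 104 moved by at least the larger SD between replicates of *nerd-1*+T or WT. With a pseudocount of 0.1 that of 57 did. With 2 libraries per genotype and no read counts, neither counting error nor a second complemented line could be assessed.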
